A study of Mus musculus with 4 samples.

Results

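The SR proteins and the heterogeneous nuclear ribonucleoproteins (hnRNPs) are the best known families of splicing regulators, and their transcripts were followed in mouse astrocyte-line cells with and without MBP. Members were chosen by name: protein-coding genes called Srsf and a number (10 genes, the SR family) or with a symbol starting in Hnrnp (20 genes, the hnRNP family), 30 of the 24169 genes in the deposited table. A further 2 rows named in this way were processed pseudogenes and were left out. RNA came from C8-D1A, a clonal astrocyte line made from mouse cerebellum. One group was untreated (control 1 and 2) and the other was kept for 24 h in 1 mM MBP (MBP 1 and 2). The labels name no vehicle in either group and spell the compound only as MBP. The series title concerns DBP, dibutyl phthalate, whose main metabolite is monobutyl phthalate. Whether libraries within a group stem from separate cultures is not stated, so the p-values below reflect only how far these libraries spread, which could be technical.

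An SR protein carries 1 or more RNA recognition motifs and a tail rich in arginine and serine. It binds enhancer sequences in exons and helps the U1 and U2 particles to recognise the neighbouring splice sites. Kinases of the SRPK and CLK families phosphorylate the tail and so set where the protein sits and how active it is. HnRNPs coat nascent transcripts, and many of them bind silencer sequences and oppose SR proteins at the same exons, so the balance of both families shifts which exons are kept. Many genes of both families limit their own output through alternative splicing: when the protein is plentiful, a "poison" exon with an early stop codon is included and nonsense-mediated decay (NMD) removes the transcript.

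Annotation of these genes holds such exons, and they are shown because the values below are totals per gene that add productive and poison transcripts together. In the GENCODE M21 annotation (GRCm38), 9 of 10 SR genes and 10 of 20 hnRNP genes had at least 1 NMD transcript, against 30.0% of the 10366 protein-coding genes tested. Srsf10 was the SR gene without one. A poison exon was taken as an internal exon of an NMD transcript that overlaps no exon of the gene's coding transcripts and holds the annotated stop codon. By this rule 5 of 10 SR genes held 6 such exons of 109 to 460 bases, and 2 of 20 hnRNP genes held 2, of 70 and 83 bases. Below is the start of 5 of them, 5′ to 3′ on the gene's strand, up to the stop codon, which is in capitals. The whole exons lie at chr17:29039454-29039909 (Srsf3, plus strand), chr17:80204622-80205081 (Srsf7, minus), chr4:131884276-131884482 (Srsf4, plus), chr5:115328347-115328704 (Srsf9, plus) and chr7:28817335-28817404 (Hnrnpl, plus).
Srsf3: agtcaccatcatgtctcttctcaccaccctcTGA
Srsf7: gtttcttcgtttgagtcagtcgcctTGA
Srsf4: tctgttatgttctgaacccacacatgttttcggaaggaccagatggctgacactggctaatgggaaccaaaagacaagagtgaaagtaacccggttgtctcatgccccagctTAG
Srsf9: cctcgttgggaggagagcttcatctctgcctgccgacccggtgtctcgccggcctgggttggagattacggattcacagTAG
Hnrnpl: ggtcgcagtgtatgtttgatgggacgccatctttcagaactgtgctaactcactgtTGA
The inclusion of these exons was not measured here. A gene total that does not move can therefore hold a shift between productive and poison transcripts, and transcript totals do not give protein amount or phosphorylation.

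Levels are in FPKM, fragments scaled to gene length and library depth, as the authors deposited them. The 4 libraries had a depth of 23571000 to 25907000 reads, read from the smallest steps between the deposited values. All 30 members passed the filter, an FPKM of 1 or more in 2 or more libraries, so no member was lost to it. Where the read number came out whole (24 of 30 members), it ran from 663 to 21542 reads per library. Markers went only part of the way with the astrocyte label. Of 12 astrocyte genes listed 11 were measured, and 4 of them passed the filter (Vim, Glul, Sox9 and Fabp7), while Slc1a3 had 0 reads in 3 libraries and 1 in MBP 2, and Gfap lay at 0.119 to 0.282 FPKM. Summed over the list, the level was 545.6 and 549.9 FPKM untreated and 518.4 and 504.8 with MBP, most of it Vim (528.5 and 531.2 against 500.4 and 487.0), and the median log2 fold change of the 4 was -0.024. Oligodendrocyte markers (4 of 6 tested, all with a log2 fold change below 0 before any GC correction) summed to 118.8 and 113.1 FPKM untreated and 104.9 and 104.6 with MBP. Most of this was Sox10 (99.97 and 96.14 against 89.65 and 87.75), whose log2 fold change was -0.14, and -0.017 after GC and length correction. Neuron markers (2 of 6 tested) summed to 35.5 and 32.8 against 26.1 and 25.7. Most of this was Tubb3 (33.2 and 30.8 against 23.8 and 23.3). Map2, the other neuron marker tested, went the other way, with a log2 fold change of 0.092. Each sum thus rested mainly on 1 gene. The part of these markers in the results was not tested. In bulk RNA, fewer cells of a type and less RNA per cell cannot be told apart.

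Both families were expressed well above the median tested gene, and the hnRNP family covered the wider range. The median level over members was 29.3 FPKM for the SR family and 38.9 for the hnRNP family, against 7.0 for all 12403 tested genes. Summed over members, the SR family stood at 330.3 and 344.0 FPKM in controls and at 327.9 and 348.0 in MBP. The hnRNP family stood at 1181 and 1170 FPKM in controls and at 1232 and 1216 in MBP. The SR sums overlapped between groups and the hnRNP sums did not, both MBP libraries being higher. Such sums are not corrected for GC content and weigh abundant genes most. The group means, control and MBP, were 149.5 and 167.5 FPKM for Hnrnpa1 and 81.4 and 98.2 for Hnrnpa2b1. Hnrnpab, at 203.1 and 192.7, was 1 of 6 hnRNP genes with a lower value in MBP on the log2 scale. Hnrnpab, Hnrnpa1, Hnrnpk and Hnrnpc led with means of over 100 FPKM, and Srsf1 and Srsf2 led the SR family at about 60. FPKM divides by the exon length of the whole gene. Hnrnpr, with 22199 bases of annotated exon, stood at 7.58 to 8.86 FPKM on 4561 reads in control 1.

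**Figure D1:**
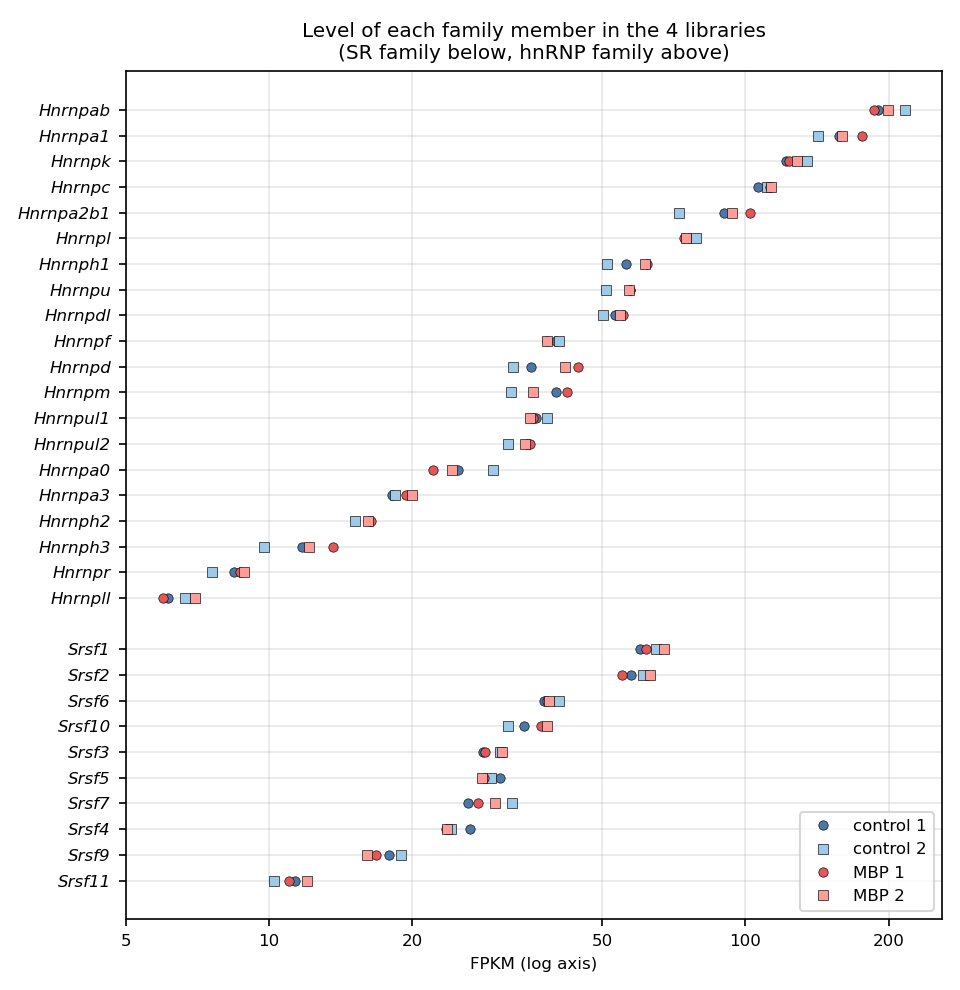
FPKM on a log axis of each SR family member (lower block) and hnRNP family member (upper block) in the 4 libraries, ordered by mean level. Libraries of 1 group often lie as far apart as the groups: for Srsf1 both control 2 and MBP 2 lie above control 1 and MBP 1, while for Hnrnpd both MBP libraries lie above both controls.

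The main comparison asked whether MBP changed these transcripts. No member passed limma's moderated test on log2(FPKM + 1) after Benjamini-Hochberg adjustment over the 12403 tested genes, with adjusted p from 0.457 to 0.985, and percent called over all tested genes was 0 as well. All p-values below come from that limma test. At an unadjusted p under 0.05, 3 members were higher in MBP (Hnrnpd, Hnrnph1 and Srsf10) and 1 was lower (Srsf9). Over all tested genes that rule called 3.81% higher and 5.87% lower, 9.68% in all, which stands beside 4 of 30 members. Limma-voom on the recovered reads also called no member (lowest adjusted p = 0.0756, Hnrnpd), with 18 of 14512 genes called, 0.124%. Without control 1 the unadjusted count was 10 of 30 members beside 18.2% of all tested genes in the same fit, and without control 2 it was 2 beside 7.64%. Without MBP 1 it was 1 beside 4.85%, and without MBP 2 it was 1 beside 5.74%. Of the members, 14 of 20 hnRNP genes and 4 of 10 SR genes had a log2 fold change (MBP minus control, also called the log2 difference below) above 0, against 48.4% of all tested genes.

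Among the 10 SR genes Srsf10, whose protein responds to heat stress, stood highest (chromosome 4, 135855747 to 135869908, plus strand, GRCm38). It had 34.2 and 31.8 FPKM untreated and 37.3 and 38.3 with MBP. Both MBP libraries lay above both controls, and the log2 difference was 0.19 (SE 0.060, 95% interval 0.037 to 0.35, adjusted p = 0.503). Srsf9, a short SR protein with a small arginine-serine tail, stood lowest (chromosome 5, 115327177 to 115333080, plus strand). It had 17.8 and 18.9 FPKM untreated and 16.7 and 16.1 with MBP. Here both MBP libraries lay below both controls, and the log2 difference was -0.16 (SE 0.060, 95% interval -0.31 to -0.0024, adjusted p = 0.512).

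Srsf5 and Srsf4, both with paired RNA recognition motifs, also had groups that did not overlap, with lower values in MBP. Srsf5 (chromosome 12, 80945504 to 80950507) had 30.6 and 29.3 FPKM untreated and 28.3 and 28.0 with MBP, or a log2 difference of -0.086 (95% interval -0.22 to 0.049). Srsf4 (chromosome 4, 131873617 to 131901706) had 26.4 and 24.2 FPKM untreated and 23.5 and 23.6 with MBP, or a log2 difference of -0.098 (95% interval -0.26 to 0.065). Control 1 was the highest library for both. In all, 1 SR gene was higher and 3 were lower in MBP without overlap, and 6 overlapped, where 44.8% of all tested genes did not overlap, 21.3% higher and 23.5% lower.

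In the most abundant SR genes, Srsf1, Srsf2 and Srsf6, the controls lay further apart on the log2 scale than the groups. The MBP libraries did so in Srsf1 and Srsf2 but not in Srsf6. Srsf1, the founding member of the family (chromosome 11, 88047373 to 88053755), had 60.2 and 64.9 FPKM untreated and 61.7 and 67.5 with MBP, or a log2 difference of 0.046. Srsf2, which stays in the nucleus and is a mainstay of nuclear speckles (chromosome 11, 116849901 to 116853094), had 57.6 and 61.0 FPKM untreated and 55.1 and 63.2 with MBP. The MBP libraries of Srsf2 thus span the controls, and the log2 difference was -0.0058 (95% interval -0.22 to 0.21). Srsf6 (chromosome 2, 162931528 to 162937121) had 37.8 and 40.7 FPKM untreated and 38.3 and 38.6 with MBP, or a log2 difference of -0.027 (95% interval -0.18 to 0.13). Srsf11 had 11.4 and 10.2 FPKM untreated and 11.0 and 12.02 with MBP, again with overlap. The 2 SR genes not yet given, Srsf3 and Srsf7, which also work in mRNA export, had log2 fold changes of 0.015 and -0.027. For Srsf7 the controls lay at 26.2 and 32.4 FPKM and held both MBP values, 27.5 and 29.8, between them. In 7 of 10 SR genes the gap between the 2 controls on the log2 scale was larger than the difference between the groups.

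Among hnRNPs the A/B and D proteins, which share paired RNA recognition motifs and a glycine-rich tail, held the highest and the lowest log2 fold change. Hnrnpd encodes AUF1, which binds AU-rich elements in mRNA and governs decay as well as splicing (chromosome 5, 99955935 to 99978938, minus strand). It had 35.5 and 32.5 FPKM untreated and 44.4 and 41.8 with MBP. Both MBP libraries lay above both controls, and the log2 difference was 0.33 (SE 0.068, 95% interval 0.16 to 0.51, unadjusted p = 0.00435, adjusted p = 0.457). An antisense RNA gene, Gm17092, overlaps its exons and stood at 0.719 to 1.28 FPKM. Hnrnpa2b1, which also reads sequence tags for RNA transport (chromosome 6, 51460932 to 51469894), had 90.3 and 72.5 FPKM untreated and 102.5 and 94.0 with MBP. Its log2 difference was 0.28 (SE 0.118, adjusted p = 0.523), smaller in size than control 2 minus control 1, which was -0.31.

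Hnrnpa1, a repressor of exon inclusion, had 157.2 and 141.8 FPKM untreated and 175.6 and 159.3 with MBP, or a log2 difference of 0.16 (adjusted p = 0.559). The annotation holds 2 pseudogenes named after Hnrnpa1, which could make its value uncertain, but this was not tested. Pseudogenes under other symbols were not searched for in any member, so the values of other members could be affected too. Hnrnpa3, a paralog of Hnrnpa1, had 18.1 and 18.4 FPKM untreated and 19.4 and 19.9 with MBP, or a log2 difference of 0.10. Hnrnpdl, the close relative of Hnrnpd, had 53.1 and 50.4 FPKM untreated and 55.4 and 54.4 with MBP. These 3 genes had groups that did not overlap, with higher values in MBP. Hnrnpa0, a gene with a single exon that binds AU-rich elements (chromosome 13, 58125879 to 58128556), went the other way, with 24.9 and 29.5 FPKM untreated and 22.1 and 24.2 with MBP. Its log2 difference was -0.22 (SE 0.097, 95% interval -0.47 to 0.029, adjusted p = 0.529). Hnrnpab, the most abundant member (chromosome 11, 51600100 to 51606847), had 190.0 and 216.3 FPKM untreated and 186.5 and 198.8 with MBP, so its groups overlapped, and the log2 difference was -0.074. Over the 7 genes of this subfamily the median log2 fold change was 0.10 and 5 were above 0.

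The F/H proteins bind runs of G through quasi-RRM domains. Hnrnph1 (chromosome 11, 50376990 to 50386528) had 56.2 and 51.3 FPKM untreated and 62.1 and 61.5 with MBP, or a log2 difference of 0.20 (SE 0.065, adjusted p = 0.503). Hnrnph3 (chromosome 10, 63014664 to 63024217) had 11.7 and 9.75 FPKM untreated and 13.7 and 12.2 with MBP, or a log2 difference of 0.25 (SE 0.106, adjusted p = 0.522). In both genes control 2 was the lowest library and the groups did not overlap. Rufy2 lies antisense to Hnrnph3 with overlapping exons, and stood at 5.19 to 5.93 FPKM. Hnrnph2 had overlapping groups at 0.046. Hnrnpf was lower in MBP without overlap, at 40.1 and 40.6 FPKM against 38.3 in both MBP libraries, or a log2 difference of -0.072 (95% interval -0.20 to 0.055).

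The other hnRNPs fall outside these subfamilies. Hnrnpk, a KH-domain protein that binds C-rich RNA and DNA (chromosome 13, 58391142 to 58403343), had 121.7 and 134.8 FPKM untreated and 123.5 and 128.6 with MBP, or a log2 difference of -0.023. Its MBP libraries lay between the controls. Hnrnpc, which binds runs of U, had 106.4 and 110.8 FPKM untreated and 112.9 and 113.4 with MBP, without overlap. Hnrnpl, a binder of CA repeats, had 76.1 and 79.0 FPKM untreated and 74.2 and 75.1 with MBP, also without overlap but lower. Hnrnpu, a scaffold protein of nuclear chromatin, had 57.1 FPKM in control 1 and in both MBP libraries, and 51.1 in control 2. The 1 library that stood apart was thus an untreated one. Cox20 overlaps Hnrnpu on the opposite strand and was also lowest in control 2, at 14.9 FPKM against 19.5 to 22.9 in the others. Hnrnpm had the largest SE of the 30 members, 0.129, with 40.0 and 32.3 FPKM untreated and 42.2 and 35.7 with MBP. Hnrnpul1 had 36.4 and 38.4 FPKM untreated and 35.8 and 35.4 with MBP, lower without overlap, and Hnrnpul2 and Hnrnpll had overlapping groups. Over the 12 hnRNP genes outside the 5 lowest p-values and the 3 highest levels, log2 fold changes ran from -0.072 to 0.12 and limma's adjusted p from 0.553 to 0.958.

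In all, 9 hnRNP genes were higher and 4 lower in MBP without overlap, and 7 overlapped. The 9 of 20 stands beside 21.3% of all tested genes that were higher without overlap, and the 4 of 20 beside 23.5% lower. Control 2 had the lowest value of the 4 libraries in 11 of 20 hnRNP genes and in 2 of 10 SR genes, against 31.4% of all tested genes. In 11 of 20 hnRNP genes the gap between the controls exceeded the difference between the groups.

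**Figure D2:**
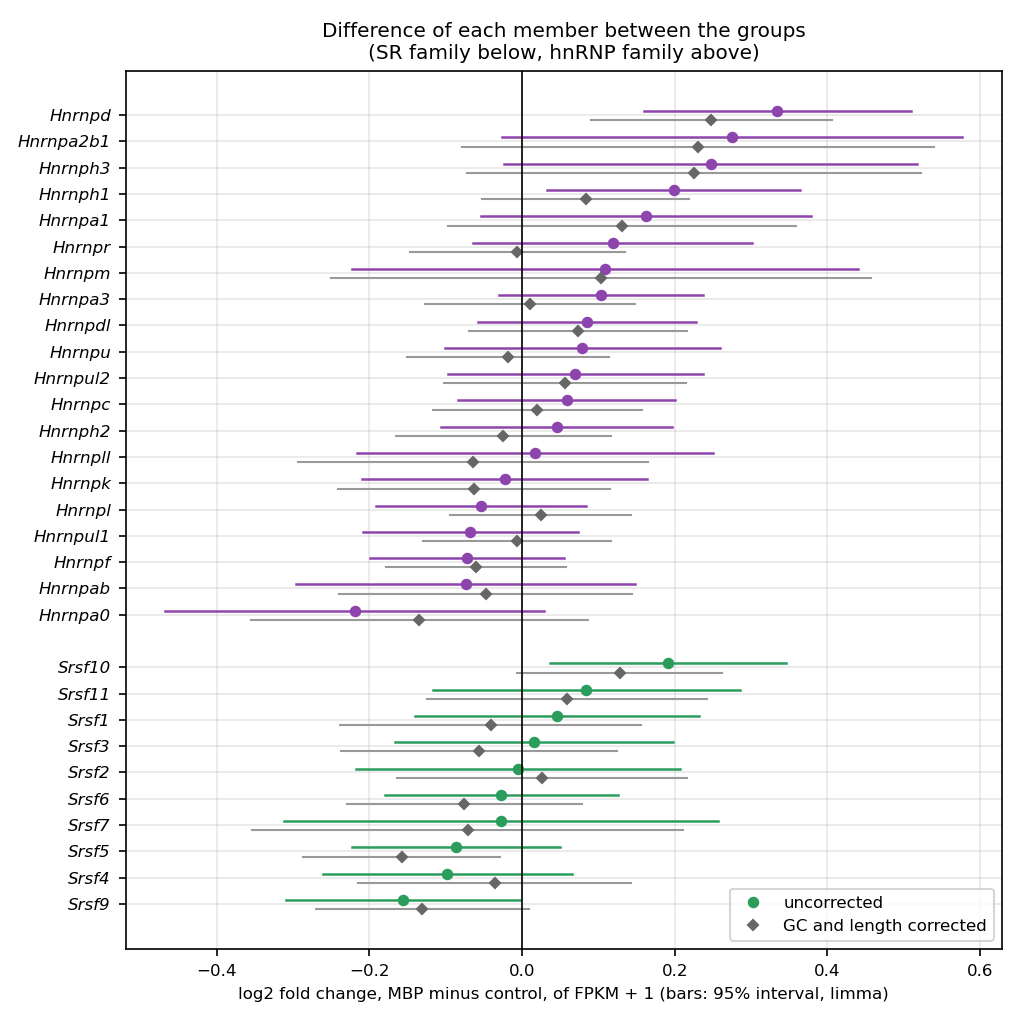
Log2 fold change of each member, MBP minus control, with limma's 95% interval, as deposited (coloured circles) and after correction for transcript GC content and length (grey diamonds). Hnrnpd stands highest at 0.33 and 0.25 and Hnrnpa0 lowest at -0.22, and most intervals cover 0.

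Transcript GC content was allowed for next, because fold changes in these libraries followed it. Over 12389 tested genes with an annotated transcript, which are no independent replicates, the Spearman correlation between log2 fold change and the GC content of the longest transcript was -0.44. The median log2 fold change ran from 0.081 in the GC-poorest eighth to -0.091 in the GC-richest. Both families are poor in GC: the median was 42.2% for the SR family and 43.9% for the hnRNP family, against 49.0% for tested genes, and 8 of 10 and 13 of 20 members lay below that median. The gradient differed in size between libraries, and its sign went with the group. The correlation of GC content with a gene's deviation from its mean over libraries was 0.21 in control 1 and 0.33 in control 2. It was -0.20 in MBP 1 and -0.45 in MBP 2. A gradient of the libraries and one that came with MBP therefore cannot be told apart, and a correction for GC content removes both.

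The members at the ends of each family serve as examples. Below are the middle 90 coding bases of the longest coding sequence of the member with the highest and the lowest log2 fold change in each family, with G and C in capitals. In Hnrnpd (chr5:99966067-99966156, minus strand) 40.0% of these bases are G or C, and in Hnrnpa0 (chr13:58127813-58127902, minus strand) 67.8%. In Srsf10 the share is 44.4% and in Srsf9 57.8%, both read across splice junctions (chr4:135863114-135863523 and chr5:115330595-115332142, plus strand).
Hnrnpd: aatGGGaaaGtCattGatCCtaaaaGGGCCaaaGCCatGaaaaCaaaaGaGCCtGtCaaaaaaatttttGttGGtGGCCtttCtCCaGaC
Hnrnpa0: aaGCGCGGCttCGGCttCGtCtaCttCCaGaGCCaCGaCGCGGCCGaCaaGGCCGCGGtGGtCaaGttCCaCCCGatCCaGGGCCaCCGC
Srsf10: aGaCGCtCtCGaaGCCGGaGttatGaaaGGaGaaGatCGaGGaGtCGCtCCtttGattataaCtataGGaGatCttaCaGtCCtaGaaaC
Srsf9: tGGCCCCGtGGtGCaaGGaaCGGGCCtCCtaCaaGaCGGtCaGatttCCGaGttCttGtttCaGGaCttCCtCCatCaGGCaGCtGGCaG
In both families the member with the highest log2 difference is poorer in GC in this stretch than the one with the lowest. The longest transcript, which the correction below used, has 41.7% GC in Hnrnpd, 55.4% in Hnrnpa0, 41.4% in Srsf10 and 48.9% in Srsf9. These 4 genes were picked by their log2 difference, and not every member followed. Srsf5, the SR gene with the lowest transcript GC content (40.1%), stood lower in MBP, at -0.086. Srsf2 has 83.3% in its middle 90 coding bases but 49.97% in its longest transcript. Its log2 difference of -0.0058 lay near -0.016, the median of tested genes in its eighth by transcript GC content. Over the 30 members, which share libraries and are not independent, the Spearman correlation of the log2 difference and transcript GC content was -0.40, with -0.51 over the 20 hnRNP genes and -0.33 over the 10 SR genes.

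**Figure D3:**
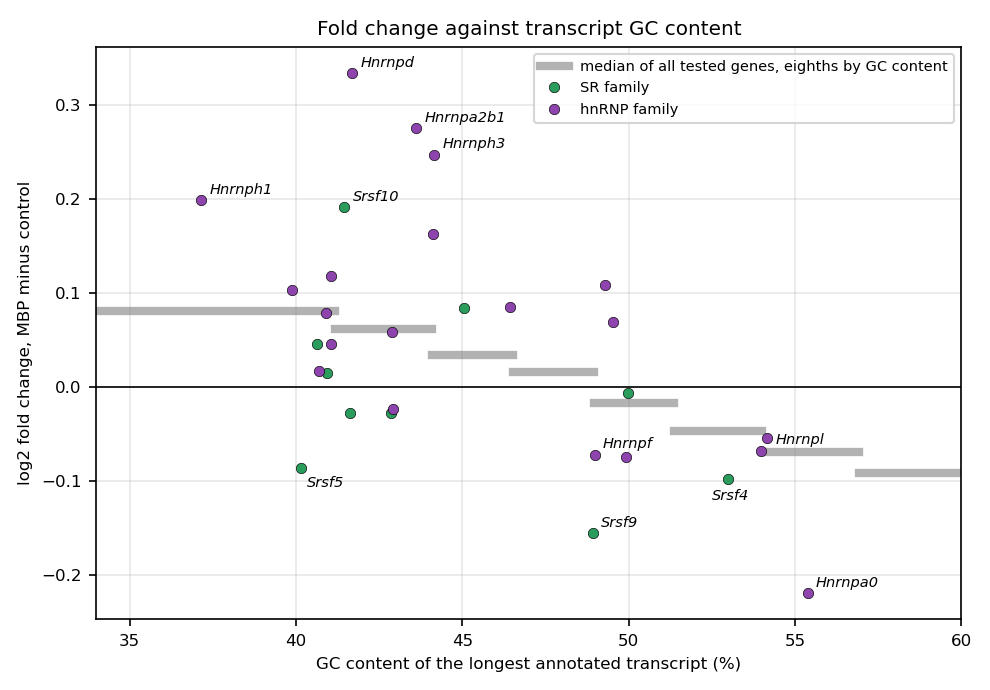
Log2 fold change (MBP minus control) against the GC content of the longest annotated transcript, for SR genes (green) and hnRNP genes (purple). Grey bars are the medians of all tested genes in eighths by GC content, which step down from 0.081 to -0.091, and the outer bars are clipped at the axis ends. Hnrnpd, Hnrnpa2b1 and Hnrnph3 lie well above the bar of their own GC content and Srsf5 and Srsf9 below it.

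A loess correction of each library for GC content and length, fitted over all tested genes, brought the hnRNP median closer to 0. It was 0.074 before and 0.015 after, and 11 in place of 14 of 20 genes stood above 0, beside 50.1% of all tested genes. The SR median was -0.016 before and -0.049 after, with 3 of 10 genes above 0, and it came to 0.0056 with TPM scaling and 0.016 with quantile normalization. Over all tested genes the median was -0.0048 before and 0.00022 after. After correction no member passed (adjusted p from 0.647 to 0.986). At an unadjusted p under 0.05 there were 1 higher (Hnrnpd) and 1 lower (Srsf5), where all tested genes gave 3.32% and 3.62%, 6.94% together. With GC content and length of the longest protein-coding transcript instead, 2 members were higher and 0 lower, beside 6.77% of all tested genes.

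The correction moved some genes much more than others. Hnrnpd stood at 0.25 after correction (95% interval 0.091 to 0.41), Hnrnpa2b1 at 0.23, Hnrnph3 at 0.23 and Hnrnpa1 at 0.13. Hnrnph1, whose longest transcript has only 37.1% GC, went from 0.20 to 0.084, Hnrnpa3 from 0.10 to 0.011 and Hnrnpr from 0.12 to -0.0061. For these 3 genes the fitted GC and length component was 0.115, 0.093 and 0.125. The longest transcript of Hnrnph1 is not annotated as protein-coding, and its longest protein-coding transcript has 45.4% GC. The same holds for Srsf5 (40.1% GC against 44.6% in the protein-coding one) and Srsf9 (48.9% against 56.2%). Srsf5 went from -0.086 to -0.16 (95% interval -0.29 to -0.028, adjusted p = 0.707), Srsf10 from 0.19 to 0.13 and Srsf9 from -0.16 to -0.13. Genes without overlap between groups after correction were, among hnRNPs, 5 higher (Hnrnpd, Hnrnph1, Hnrnph3, Hnrnpdl and Hnrnpl) and 1 lower (Hnrnpf), and among SR genes 1 higher (Srsf10) and 3 lower (Srsf5, Srsf6 and Srsf9). Over all tested genes these shares were 19.3% and 19.2%. Hnrnpl changed side, from lower without overlap before correction (-0.054) to higher without overlap after it (0.025).

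The 2 families were compared directly through their medians in each library, taken over members as the deviation of log2(FPKM + 1) from each gene's mean over the 4 libraries. For the hnRNP family these were -0.0044 and -0.074 in controls and 0.037 and 0.024 in MBP. For the SR family they were -0.038 and 0.037 in controls and -0.045 and 0.053 in MBP, so both groups of the SR family held 1 low and 1 high library. The hnRNP median minus the SR median was 0.034 in control 1, -0.111 in control 2, 0.082 in MBP 1 and -0.030 in MBP 2. Those values overlap between the groups, and their MBP mean minus their control mean was 0.065, with a pooled within-group SD of 0.092. After correction the library values were 0.0052 and -0.087 in controls and 0.052 and 0.0030 in MBP. These still overlap, and the difference of their means was 0.068, with a pooled within-group SD of 0.052. Taken instead from the medians of log2 fold change, the families differed by 0.091 (0.074 minus -0.016), and by 0.064 after the GC and length correction. The median GC and length component was 0.046 for SR and 0.035 for hnRNP genes, so the correction lowered both families. The difference between the families depended on single libraries: uncorrected it was 0.15 without control 1, 0.019 without control 2, 0.017 without MBP 1 and 0.14 without MBP 2. The SR median turned above 0 without control 2 (0.030) or without MBP 1 (0.050), and the hnRNP median was 0.11 without control 1 and 0.049 without control 2.

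**Figure D4:**
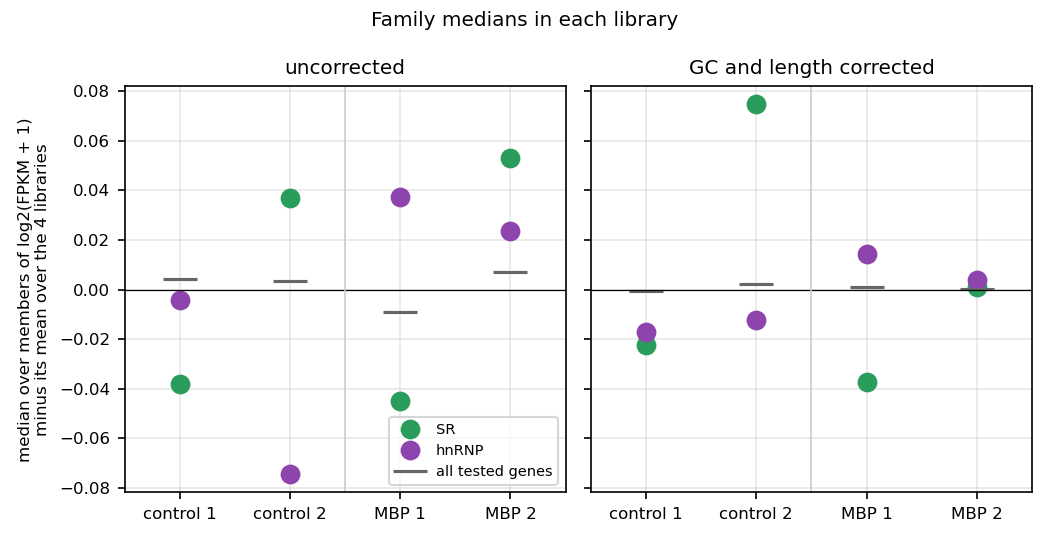
Median over members of log2(FPKM + 1), as the deviation from each gene's mean over the 4 libraries, for the SR family, the hnRNP family and all tested genes (grey dashes), before (left) and after (right) correction for GC content and length. Control 2 has the lowest hnRNP median before correction, at -0.074, and the highest SR median after it, at 0.075.

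Other splicing genes, in 6 lists, put the families in context, and no gene of these lists passed the adjusted limma test. Of 24 tested SR-related proteins 19 had a log2 fold change above 0 (median 0.069, and 0.050 after the GC and length correction), beside 48.4% of all tested genes. Tra2a, a partner of SR proteins at exonic enhancers, had 23.5 and 22.7 FPKM untreated and 27.6 and 26.9 with MBP, or a log2 difference of 0.23 (adjusted p = 0.486). Srek1, Rnps1 and Rsrp1 stood at 0.22, -0.14 and -0.15, and after correction at 0.13, -0.097 and -0.16. Of 9 genes for the kinases and import receptor of SR proteins 8 were above 0, with a median of 0.093, and 0.062 after correction. Of the 9, 5 were higher in MBP without overlap, beside 21.3% of all tested genes. Clk2, a kinase of the arginine-serine tail, had 17.9 and 16.4 FPKM untreated and 19.3 and 19.0 with MBP, or a log2 difference of 0.15, and 0.23 after correction. Clk1, Dyrk1a and Tnpo3, the last an importer of SR proteins, stood at 0.16, 0.091 and 0.089, and after correction at 0.063, 0.058 and 0.062.

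Proteins of the hnRNP class that carry other names had a median of 0.027 over 12 genes, and 0.0046 after correction. Pcbp1, which is hnRNP E1 and binds C-rich RNA, had 138.4 and 143.6 FPKM untreated and 115.9 and 113.5 with MBP. The groups lay well apart, and the log2 difference was -0.30 (SE 0.057, unadjusted p = 0.0033, adjusted p = 0.457), and -0.19 after correction. Ptbp1, which is hnRNP I and represses neuronal exons in other cell types, stood at -0.12, its neuronal paralog Ptbp2 at 0.15 and Pcbp4 at -0.10. After correction Ptbp1 and Ptbp2 stood at -0.047 and 0.016, and Pcbp4 turned above 0, at 0.031. Sequence-specific regulators of other families had a median of 0.048 over 27 genes, and 0.026 after correction. Their transcripts had a median GC content of 44.1%. Of the 27 regulators 23 were above 0 before correction, beside 48.4% of all tested genes. Among them Rbm6 stood at 0.26, Taf15 at 0.25, Rbm25 at 0.23 and Rbm4 at 0.19, and after correction these stood at 0.22, 0.27, 0.11 and 0.16.

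Core spliceosome genes had a median of -0.024 over 40 genes, which turned to 0.0041 after correction. Of the 40, 16 were above 0 before correction, beside 48.4% of all tested genes. The median GC content of their transcripts was 49.9%. Snrpb and Snrpd2, both of the Sm ring of the small nuclear particles, stood at -0.25 and -0.18, Snrpa1 at -0.14 and Snrnp70 at 0.16. After correction these 4 stood at -0.19, -0.11, -0.16 and 0.23. Genes of nonsense-mediated decay and the exon junction complex, the pathway that removes poison transcripts, had a median of 0.044 over 14 genes, and 0.019 after correction. Smg9, a regulator of the kinase that activates Upf1, had 3.31 and 3.37 FPKM untreated and 4.08 and 4.23 with MBP, or a log2 difference of 0.25 (adjusted p = 0.503), and 0.37 after correction. Upf3b stood at 0.22, Eif4a3 at -0.13 and Upf1 at -0.096, and after correction at 0.18, -0.034 and -0.023.

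**Figure D5:**
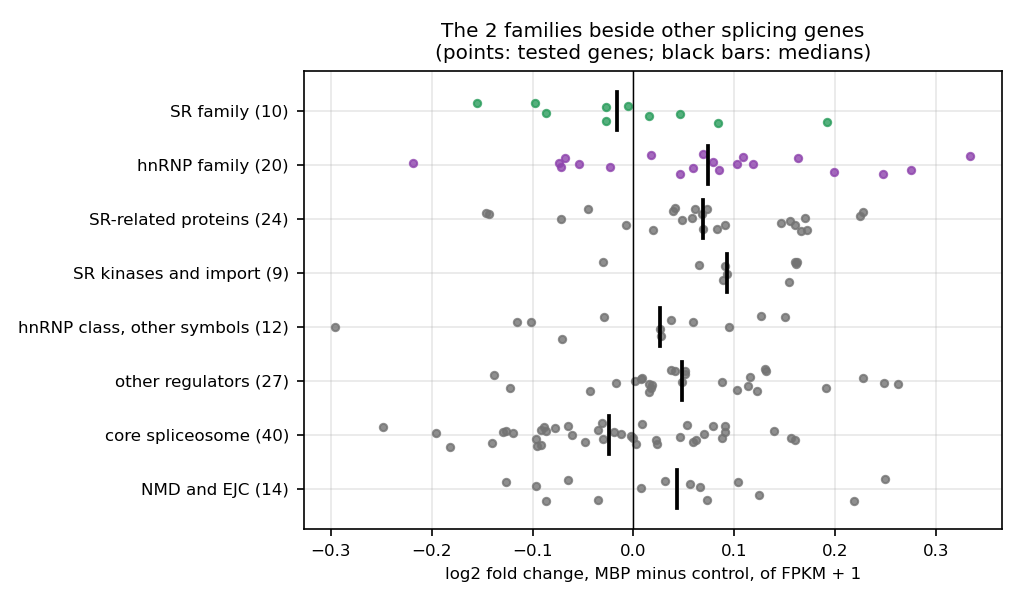
Log2 fold change (MBP minus control) of the tested genes of both families and of 6 lists of other splicing genes, with the number of genes in brackets, medians as black bars and points spread vertically at random. Medians lie between -0.024 for the core spliceosome and 0.093 for the kinases and import receptor of SR proteins, and every row has points on both sides of 0.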

How the data were processed

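RNA-seq libraries of ribosome-depleted total RNA were made with a directional kit from 4 samples (2 per group), per the labels' protocols. Tools named by the submitters' processing notes are HISAT2 and bcl2fastq, with the GRCm38 build. The counting program, its annotation and strand setting and all versions were "not given in the sources used here", and 14 of 30 members share exon bases with another gene. The authors deposited 1 table of FPKM. FPKM times exon length gave whole reads (within 0.05) for 93.8% to 94.0% of values, and so the depth. Values were tested as log2(FPKM + 1), which understates changes of low genes, with limma 3.58.1 in R 4.3.3 (trend, two-sided, Benjamini-Hochberg, threshold 0.05) on genes reaching an FPKM of 1 in 2 libraries. GC content and length came from the longest GENCODE M21 transcript, and the loess span was 0.5. The code of the fit was tested on simulated data, with set changes larger than any member had here. That test does not bear on differences of the size seen in the members. Members and lists were chosen with earlier results of these data known. Named genes were, per family, the 5 lowest p-values and 3 highest levels, and up to 4 per list. Others were named after their values were seen. Alternatives covered the GC correction, scaling, filter, pseudocount, spread model, limma-voom and each library left out. The microglia, neuron, oligodendrocyte, endothelial and fibroblast or pericyte markers had 1, 2, 4, 1 and 1 tested genes, with medians of -0.22, -0.17, -0.12, 0.055 and -0.14.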

Additional observations from a re-analysis of the deposited data

How the results depend on the processing

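In the 23 alternatives run, 0 of 30 members passed the adjusted threshold. Genes called over the whole table were 0 in all of them except limma-voom on recovered reads, with 18. The hnRNP median log2 fold change was above 0 in all 23. It moved by more than the spread of the library medians with the GC and length correction (0.015), GC correction alone (0.020), protein-coding genes with both (0.020), the GC and length of the longest protein-coding transcript (0.0072) and quantile normalization (0.11). In the same order without the last, Srsf1 turned below 0, at -0.041, -0.023, -0.037 and -0.046, and Srsf2 above 0, at 0.026, 0.0046, 0.044 and 0.015. Srsf2 was also above 0 with TPM (0.016) and quantile normalization (0.036), where Hnrnpab (0.018) and Hnrnpk (0.064) turned above 0 too. Leaving out 1 library, before or after correction, gave an SR median of -0.13 to 0.050, an hnRNP median of 0.0094 to 0.11 and a difference between them of 0.016 to 0.15. The same fits gave -0.12 to 0.11 for Srsf1, -0.10 to 0.11 for Srsf2, -0.16 to 0.045 for Srsf4, -0.13 to 0.026 for Srsf6, -0.0067 to 0.15 for Srsf11, -0.17 to 0.026 for Hnrnpab and -0.14 to 0.050 for Hnrnpk. The causes were not tested. Srsf5, Srsf9, Srsf10, Hnrnpd, Hnrnpdl, Hnrnpf, Hnrnph1, Hnrnph3, Hnrnpa0, Hnrnpa1 and Hnrnpa2b1 had the same sign in all 23. The sign changed most often for Srsf2, in 11 of 23, and for Srsf3 and Hnrnpl, in 9 each. With a library left out, 1 group has a single sample, which is assumed to vary like the other group. No paired analysis was possible because the groups compared share fewer than 2 replicate numbers in the labels. The numbers 1 and 2 used for the libraries here give only their order and pair no control library with an MBP library. Only 2 libraries per group limit the precision of every value. The settings with the longest protein-coding transcript and with a library left out after correction were chosen after seeing the data.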
